A study of Mus musculus with 8 samples.

Results

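The genes examined were *Cebpa*, *Cebpb*, *Cebpd*, *Cebpe*, *Spi1*, *Irf8*, *Gfi1* and *Klf4*, which encode 8 myeloid transcription factors, and the measurement was the accessibility of their chromatin in MPP3 and MPP4 cells. A peak was counted for a gene when its centre fell inside the gene or no more than 20 kb before or 10 kb after it, and no other gene of the GENCODE vM21 annotation was closer. For *Cebpa*, every peak between 35.11 and 35.17 Mb of chr7 was added, an interval that holds its distal enhancer. The rule gave 39 of 87642 peaks in MPP3 cells and 42 of 86952 peaks in MPP4 cells, and each of the 8 genes had peaks in both cell types. The levels of the 2 cell types were within 2-fold of each other at 29 of 32 peaks that overlapped between them. Over the whole series this held for 59810 of 66324 overlapping peaks, a similar share. The 3 exceptions among the 32 lay at *Cebpe*. The *Cebpe* peaks 6.2 and 5.4 kb past its start, downstream of the gene, were 3.57-fold and 4.36-fold higher in MPP3 than in MPP4 cells.

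The series measured accessibility by ATAC-seq, a method that cuts and tags open DNA with the Tn5 transposase, in 8 libraries made from 5000 bone marrow cells apiece. Both sorted populations are multipotent progenitors, MPP3 biased to myeloid and MPP4 to lymphoid fates. They were sorted as lineage-depleted cells with Sca-1 and Kit on their surface, without CD150 and with CD48, and MPP4 cells in addition with Flt3. There were 2 libraries in each of the groups MPP3_WT, MPP3_KO, MPP4_WT and MPP4_KO. Per the labels, all mice were C57BL/6 (C57BL/6J in the study's methods) and all carried Ebf1fl/fl: the WT mice were Tie2Cre +/+ and the KO mice Tie2Cre +/cre, so that the controls held floxed alleles without Cre. The design text of the series names Ebf1-wt Tie2Cre mice as the controls instead, and the difference could not be settled from the labels. The Tie2 (*Tek*) promoter drives Cre in blood and endothelial cells, and its target here was *Ebf1*, which encodes a transcription factor of the B lineage. The mice were 8 weeks old in MPP3_WT and MPP4_KO, 9 weeks old in MPP4_WT, and 8 or 9 weeks old in MPP3_KO, and 7 libraries came from females and 1, in MPP4_WT, from a male.

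Each cell type has a single deposited level for every peak, the mean log2 CPM over its 4 libraries, 2 of WT and 2 of KO mice. CPM stands for fragments per 1000000 fragments over the peaks of that cell type, and the labels give a sequencing depth of 50000000 reads per library after a shallower first run. No value per library was given in these tables, so no level below has an SD, no difference between the cell types was tested, and the genotypes were not compared. The tables of the 2 cell types were normalized separately, and their levels are therefore set side by side as descriptions. Values per kb divide CPM by the called width of the peak, which can differ between the cell types. Whether width itself followed level was not tested. In these bulk samples, a higher level from more open cells cannot be told apart from one with more open DNA per cell. Over all matched peaks, the median MPP3 minus MPP4 difference was -0.04 on the log2 CPM scale, with the middle 50% of peaks between -0.42 and 0.28. Of all MPP3 peaks, 24.3% had no overlapping MPP4 peak, and of all MPP4 peaks, 23.3% had no overlapping MPP3 peak.

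Myeloid fate depends on a small set of transcription factors. PU.1, the ETS factor encoded by *Spi1*, acts in both myeloid and lymphoid cells, and C/EBPα drives the step from early progenitors to granulocyte and monocyte progenitors. C/EBPβ serves demand-driven granulocyte production, C/EBPδ responds to inflammatory signals, and C/EBPε acts late in granulocyte maturation. IRF8 and KLF4 favour monocytes and, for IRF8, dendritic cells, whereas the repressor GFI1 favours granulocytes. Much of their control lies in distal enhancers: the enhancer downstream of *Cebpa*, an upstream regulatory element of *Spi1* known to be bound by RUNX1, and an enhancer downstream of *Cebpe* used in the granulocyte lineage.

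The distal peaks with the highest levels carry the main observations, so the sequence of their central 240 bases in MPP3 cells is shown, read from GRCm38 (mm10) on the plus strand. Capitals mark the letters of 8 binding words searched on both strands: CEBP (TTNNGCAA), PU.1 (GAGGAAG), EBF1 (TCCCNNGGG), E-box (CAGCTG or CAGGTG), RUNX (TGTGGT or TGCGGT), the GATA word (AGATAA or TGATAA), KLF (CCACCC) and GFI1 (AATCNNNGC). Words can overlap, and a run of capitals such as the first of the *Cebpe* sequence holds an E-box and a KLF word that share a base. The 4 windows lie in no annotated exon. They are chr14:54705897-54706136 downstream of *Cebpe*, chr7:35156590-35156829 in the distal enhancer of *Cebpa*, chr2:91082963-91083202 upstream of the main *Spi1* start, and chr2:167680158-167680397 upstream of *Cebpb*.
Cebpe downstream: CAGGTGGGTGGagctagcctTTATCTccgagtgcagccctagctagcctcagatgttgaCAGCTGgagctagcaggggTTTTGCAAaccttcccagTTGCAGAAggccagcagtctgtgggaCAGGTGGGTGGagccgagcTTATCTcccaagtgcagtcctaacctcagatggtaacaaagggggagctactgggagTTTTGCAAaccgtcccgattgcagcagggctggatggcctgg
Cebpa enhancer: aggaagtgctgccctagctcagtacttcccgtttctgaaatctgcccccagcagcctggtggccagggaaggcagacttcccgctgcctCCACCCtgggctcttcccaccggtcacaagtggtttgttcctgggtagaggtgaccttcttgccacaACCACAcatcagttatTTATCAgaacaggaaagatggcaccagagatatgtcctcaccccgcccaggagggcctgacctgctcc
Spi1 upstream: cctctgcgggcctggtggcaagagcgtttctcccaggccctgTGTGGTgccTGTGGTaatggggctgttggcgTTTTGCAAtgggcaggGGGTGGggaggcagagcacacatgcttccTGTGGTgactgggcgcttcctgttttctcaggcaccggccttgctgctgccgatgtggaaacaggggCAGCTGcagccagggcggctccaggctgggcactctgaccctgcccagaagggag
Cebpb upstream: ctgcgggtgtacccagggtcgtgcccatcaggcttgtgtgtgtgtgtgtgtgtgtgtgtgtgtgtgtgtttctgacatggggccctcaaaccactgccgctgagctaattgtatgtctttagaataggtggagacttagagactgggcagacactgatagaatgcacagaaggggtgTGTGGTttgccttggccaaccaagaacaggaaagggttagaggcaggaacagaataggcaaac

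The *Cebpe* window held 3 CEBP words, at bases 79-86, 97-104 and 199-206, together with 3 E-box, 2 KLF and 2 GATA words. Of all 87642 MPP3 windows of this length, 9.66% held at least 1 CEBP word and 53 windows, or 0.0605%, held 3 or more. The window consists of a stretch that is repeated once: its first and last 120 bases matched in 95 of 128 aligned columns (74.2%), and the order E-box with KLF, GATA, CEBP returned in the second copy. The same comparison of the start and end of the *Spi1* window gave 53.9%. The *Spi1* window held 3 RUNX words, and 1.31% of MPP3 windows of this length held 3 or more. It also held a CEBP, a KLF and an E-box word. The *Cebpa* window held a KLF, a RUNX and a GATA word, and no CEBP, PU.1 or EBF1 word in these letters. Other spellings were not searched, so this does not show that the enhancer lacks sites for those factors. The *Cebpb* window held a RUNX word only.

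Promoter sequences are shown for the C/EBP genes with an entry in the RefSeq promoter table (GRCm38.p6), *Cebpa* and *Cebpb*, as the 250 bases before the start, with the same marking. The table matched 5 of the 8 genes, with 7 entries. Over all 32851 promoters of this length, 28.1% held a KLF word, 5.60% an EBF1 word and 9.56% a CEBP word. The *Cebpa* promoter (chr7:35119043-35119292, plus strand) held a KLF word, and the *Cebpb* promoter (chr2:167688665-167688914, plus strand) held an EBF1 word and a KLF word.
Cebpa promoter: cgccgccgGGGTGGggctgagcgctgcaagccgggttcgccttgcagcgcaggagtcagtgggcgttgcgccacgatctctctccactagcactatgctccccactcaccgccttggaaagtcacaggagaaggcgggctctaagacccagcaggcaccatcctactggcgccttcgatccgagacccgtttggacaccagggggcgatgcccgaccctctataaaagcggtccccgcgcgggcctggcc
Cebpb promoter: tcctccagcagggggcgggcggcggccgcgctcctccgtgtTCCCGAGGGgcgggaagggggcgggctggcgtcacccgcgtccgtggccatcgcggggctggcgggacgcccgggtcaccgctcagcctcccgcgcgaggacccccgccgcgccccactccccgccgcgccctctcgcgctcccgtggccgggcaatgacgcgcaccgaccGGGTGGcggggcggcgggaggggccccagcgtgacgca

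*Cebpa* had 7 peaks in MPP3 and 9 in MPP4 cells, including the distal interval. The peak over its start (chr7:35118917-35119478 in MPP3), which covers the promoter shown above, had a level of 6.40 log2 CPM in MPP3 and 6.10 in MPP4 cells, above 98.3% and 97.7% of all peaks of the cell type. The strongest distal peak of the interval, 37.4 kb downstream of the start (chr7:35156443-35156977), stood at 5.69 in MPP3 and 5.22 in MPP4 cells. Both peaks were thus strong in the 2 cell types and somewhat higher in MPP3, by 0.30 and 0.47 on the log2 scale. These differences lay at the 75.8 and 85.1 percentiles of all matched peaks, and per kb of peak length they were 0.29 and 0.57. Among matched peaks with a mean level within 0.5 log2 CPM of theirs, they lay at the 69.5 and 88.8 percentiles.

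The other *Cebpa* peaks were weaker. Those from 20.7 to 37.4 kb downstream lie closest to the gene Gm35665 and the farthest, at 50.3 kb, to *Slc7a10*, and they were counted through the added interval. The matched ones 7.9, 20.7, 31.8 and 50.3 kb downstream differed between the cell types by -0.33 to 0.10 log2 CPM. The peak 5.7 kb downstream (chr7:35124825-35125101) was 3.54 in MPP3 and 4.28 in MPP4 cells. It was the member with the lowest MPP3 minus MPP4 value, -0.74, but the MPP4 peak was wider (425 against 277 bp), and per kb of peak length the difference was -0.12. A pair of peaks was found in MPP4 cells only. The peak 0.7 kb before the start (chr7:35118475-35118684) had a level of 4.22, was closest to Gm45091, a gene antisense to *Cebpa*, and held an EBF1 word. The other, 27.1 kb downstream (chr7:35146260-35146464), was weak at 1.16.

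*Cebpb* had the same 3 peaks in both cell types. The strongest lay 8.6 kb upstream (chr2:167679941-167680614), with 5.64 log2 CPM in MPP3 and 5.73 in MPP4 cells, so that the distal site stood above the start in both. This peak and the one 2.4 kb upstream lie inside *Tmem189*, a neighbouring gene whose transcripts also run across the *Cebpb* start. The peak over the start (chr2:167688657-167689292) had 5.17 in MPP3 and 4.57 in MPP4 cells, and the peak 2.4 kb upstream had 4.01 in MPP3, 0.01 more than in MPP4 cells. The start was the *Cebpb* peak that differed most between the cell types, by 0.60, or 0.29 per kb of peak length.

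*Cebpd* had its strongest peak over the start (chr16:15886672-15887469), with 5.20 log2 CPM in MPP3 and 4.70 in MPP4 cells. The second peak, 0.8 kb into the gene (chr16:15887975-15888163), had 3.16 in MPP3 and 2.48 in MPP4 cells. No member peak of *Cebpd* lay upstream of the promoter in either cell type. MPP4 cells had a pair of peaks over exon sequence toward the end of the annotated gene that MPP3 cells lacked, at chr16:15889993-15890268 with 3.26 and at chr16:15890682-15890852 with 2.12. Both lie in a stretch where transcripts of *Cebpd* and *Spidr* overlap. The 2 shared peaks were higher in MPP3 cells by 0.50 and 0.68 on the log2 scale, or 0.10 and 0.44 per kb of peak length. The second pair overlapped by only 86 bp, 45.5% of the MPP3 peak, so its 2 levels cover partly different DNA.

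*Cebpe* differed most between the cell types. Its peak 6.2 kb past the start, downstream of the gene (chr14:54705731-54706302), had 6.23 log2 CPM in MPP3 and 4.39 in MPP4 cells. The neighbouring peak 5.4 kb past the start (chr14:54706615-54706930) had 4.20 in MPP3 and 2.08 in MPP4 cells. These differences of 1.84 and 2.12 are 3.57-fold and 4.36-fold, and lay at the 99.6 and 99.8 percentiles of all matched peaks. Per kb of peak length they were 1.75 and 1.57, at the 99.9 and 99.8 percentiles, so they remained above 2-fold with the narrower MPP4 peaks taken into account. The window with 3 CEBP words shown above is the centre of the first of these peaks.

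The start of *Cebpe* was, in contrast, the least accessible of the 8. No peak lay over it, and the nearest (chr14:54712729-54713141, 0.8 kb upstream) had 2.78 log2 CPM in MPP3 and 1.54 in MPP4 cells. Its difference of 1.24 was -0.22 per kb of peak length, with widths of 413 bp in MPP3 and 150 bp in MPP4 cells. The MPP4 peak overlapped 36.3% of the MPP3 peak, so the 2 levels cover partly different DNA. The peak 2.7 kb upstream (chr14:54714737-54715026) had 3.08 and 2.98, and a peak 2.1 kb upstream (chr14:54714135-54714416) was found in MPP3 cells only, at 2.64. The peaks 5.4 kb past the start and 2.7 kb upstream held the only EBF1 words in the central 200 bp of MPP3 member peaks. Both are shown with 16 bases on either side, on the minus strand, on which *Cebpe* is transcribed, with the word in capitals (chr14:54706712-54706752 and chr14:54714850-54714890).
Cebpe +5.4 kb EBF1 word: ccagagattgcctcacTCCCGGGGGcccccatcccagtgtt
Cebpe -2.7 kb EBF1 word: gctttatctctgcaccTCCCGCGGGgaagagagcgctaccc

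**Figure D1:**
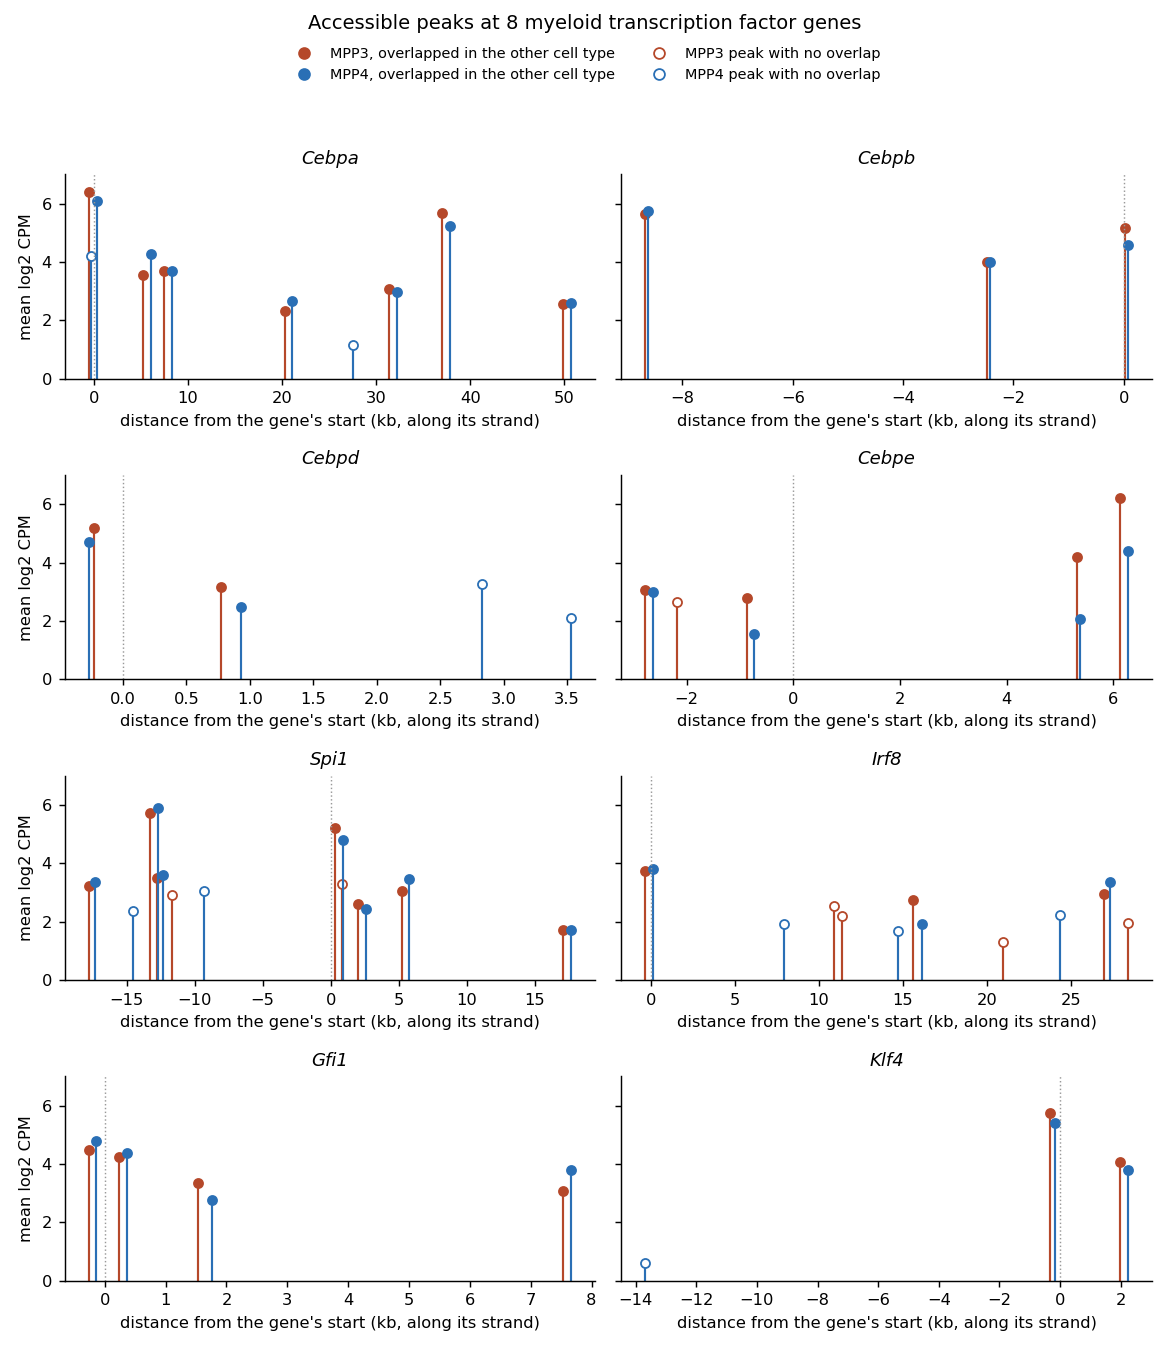
Peaks of the 8 genes by distance from the gene's start (horizontal axis, kb along the gene's strand) and mean log2 CPM (vertical axis, over 4 libraries, with no error available), MPP3 in red and MPP4 in blue, drawn slightly apart. Open circles are peaks without an overlapping peak in the other cell type; the strongest peak of *Cebpe* stands at 6.23 in MPP3 and 4.39 in MPP4 cells, whereas the strongest peaks of *Spi1* stand at 5.74 and 5.90.

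*Spi1* had 9 peaks in each cell type. The strongest lay 13.0 kb upstream of the main start (chr2:91082852-91083314), near the start of an alternative *Spi1* transcript, and had 5.74 log2 CPM in MPP3 and 5.90 in MPP4 cells. No *Spi1* peak covered the main start itself. The nearest, centred 0.6 kb past it and close to another annotated *Spi1* start (chr2:91096475-91096930), had 5.20 in MPP3 and 4.81 in MPP4 cells. The distal site was thus higher than this peak in both cell types. Per kb of peak length it had 115 against 80.7 CPM per kb in MPP3 and 143 against 70.5 in MPP4 cells. The peak past the start was higher in MPP3 by 0.39 and the distal site lower by 0.16, both smaller than 1 on the log2 scale. The 5 other matched *Spi1* peaks differed by -0.41 to 0.16.

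The *Spi1* peaks found in 1 cell type only were of middle or low level. In MPP3 cells they lay 11.4 kb upstream of the main start (chr2:91084582-91084793, 2.91 log2 CPM) and 1.1 kb past it (chr2:91097066-91097283, 3.28). In MPP4 cells they lay 14.8 kb upstream (chr2:91081221-91081382, 2.36) and 9.6 kb upstream (chr2:91086410-91086623, 3.05).

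*Irf8* was the gene with the most peaks found in 1 cell type only, 4 of 7 in MPP3 and 3 of 6 in MPP4 cells, against 24.3% and 23.3% of all peaks. Its start peak (chr8:120735954-120736474) had 3.74 log2 CPM in MPP3 and 3.79 in MPP4 cells. A peak inside the gene at the start of an alternative *Irf8* transcript, 15.8 kb past the main start (chr8:120752047-120752369), had 2.74 in MPP3 and 1.92 in MPP4 cells, a difference of 0.81, or 0.58 per kb. The peak 27.2 kb past the start (chr8:120763356-120763670) had 2.95 and 3.36. The peaks of MPP3 cells only lay 11.1, 11.6, 21.2 and 28.6 kb past the start with levels of 2.53, 2.21, 1.32 and 1.97. Those of MPP4 cells only lay 7.7, 14.5 and 24.1 kb past it with 1.91, 1.68 and 2.23. Of these, the highest, at 2.53, lay above the median of 2.24 of all MPP3 peaks, and those of MPP4 cells lay below the MPP4 median of 2.35. In each cell type they fell on both the introns and the region downstream of the gene.

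*Gfi1* had the same 4 peaks in both cell types. The peak over the start (chr5:107725797-107726220) had 4.48 log2 CPM in MPP3 and 4.80 in MPP4 cells, and the adjoining peak 0.3 kb into the gene had 4.24 and 4.38. The intronic peak 7.6 kb past the start (chr5:107718026-107718377) had 3.08 in MPP3 and 3.79 in MPP4 cells, a difference of -0.72, or -0.42 per kb. The peak 1.6 kb past the start (chr5:107724037-107724462) went the other way, with 3.35 in MPP3 and 2.77 in MPP4 cells, but its difference of 0.58 was -0.21 per kb, since the MPP4 peak spanned 245 bp and the MPP3 peak 426 bp. The peaks of this pair overlapped by 226 bp, 53.1% of the MPP3 peak, so their 2 levels cover partly different DNA. Per kb of peak length, all 4 *Gfi1* peaks were lower in MPP3 than in MPP4 cells, with that limit for this pair.

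*Klf4* had its strongest peak over the start (chr4:55532226-55533129), with 5.75 log2 CPM in MPP3 and 5.41 in MPP4 cells, and a second peak over its exon 2.1 kb into the gene with 4.06 and 3.79. At 904 bp in MPP3 cells the start peak was the widest of the 39. MPP4 cells also had a peak 13.8 kb upstream (chr4:55546153-55546329), which at 0.61 was the weakest of the 42.

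**Figure D2:**
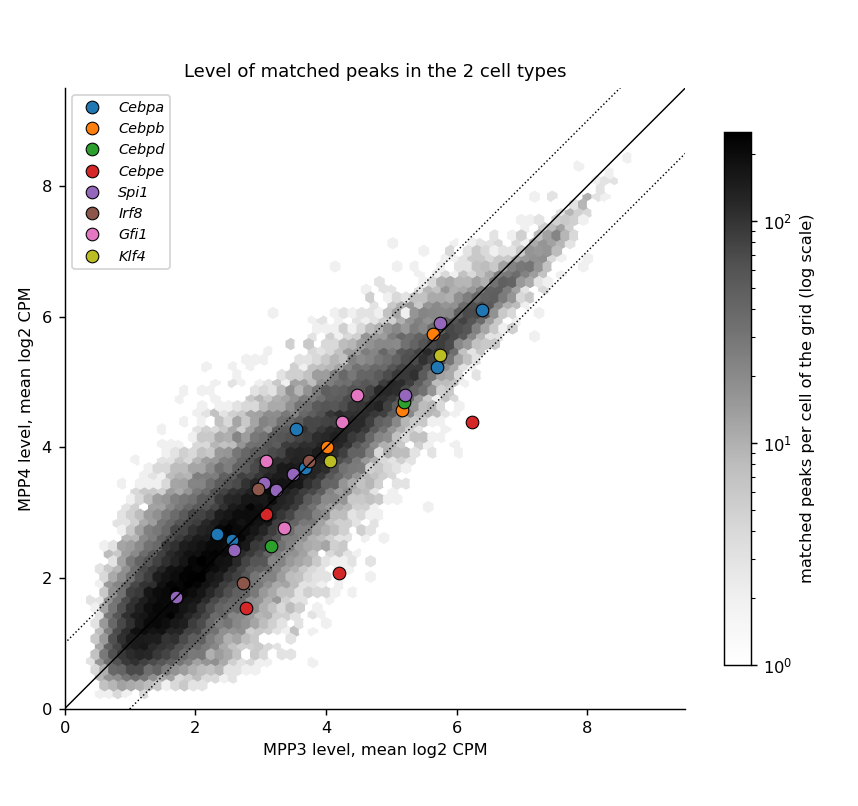
Level of the 32 matched peaks of the 8 genes in MPP3 (horizontal axis) and MPP4 cells (vertical axis), both as mean log2 CPM, over the 66324 matched peaks of the series in grey. The solid line marks equal levels and the dotted lines a 2-fold difference; the 3 points beyond a dotted line are all peaks of *Cebpe*.

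Of the MPP3 peaks of the 8 genes, 32 overlapped an MPP4 peak by at least 1 bp and 7 did not (17.9%), whereas 24.3% of all MPP3 peaks had no MPP4 peak. Of the MPP4 peaks, 10 of 42 (23.8%) had no MPP3 peak, against 23.3% of all MPP4 peaks. The share found in 1 cell type was thus near that of the whole series in MPP4 cells and below it in MPP3 cells, without a test. Peaks found in 1 cell type only came from *Spi1* and *Irf8* in both, from *Cebpe* in MPP3, and from *Cebpa*, *Cebpd* and *Klf4* in MPP4 cells. Their median level was 2.53 log2 CPM in MPP3 and 2.17 in MPP4 cells, below the 3.61 and 3.74 of the matched peaks. Peaks were found by the authors on merged replicates, so these absences have no replicate check.

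At the 32 matched peaks, 17 levels were higher in MPP3 and 15 in MPP4 cells. The median difference was 0.05 log2 CPM with the middle 50% between -0.12 and 0.48, and per kb of peak length the median was 0.01. A level at least 2-fold higher in MPP3 cells was found at 3 of the 32, all at *Cebpe*, against 3.78% of all matched peaks, and a level at least 2-fold higher in MPP4 cells at none of the 32, against 6.05% of all. Per kb, 2 of the 3 *Cebpe* peaks still differed by at least 2-fold. Split by position, the 13 matched peaks within 1 kb of an annotated start of their gene had a median difference of 0.39. Of these 13, 9 were higher in MPP3 cells. The 13 include the *Spi1* peak 13.0 kb upstream and the *Irf8* peak 15.8 kb past the main start, which lie near alternative starts. The 19 others had a median of -0.01, with 8 higher in MPP3 cells. Per kb of peak length the medians were 0.10 and 0.01, with 7 of 13 and 10 of 19 higher in MPP3 cells, so the gap between the positions was smaller on that scale. Over all matched peaks, the split used annotated starts of any gene, not only of the peak's own. Of those within 1 kb of such a start, 62.3% were higher in MPP3 cells, and of the others 40.2%. Per kb of peak length these shares were 61.3% and 47.3%.

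**Figure D3:**
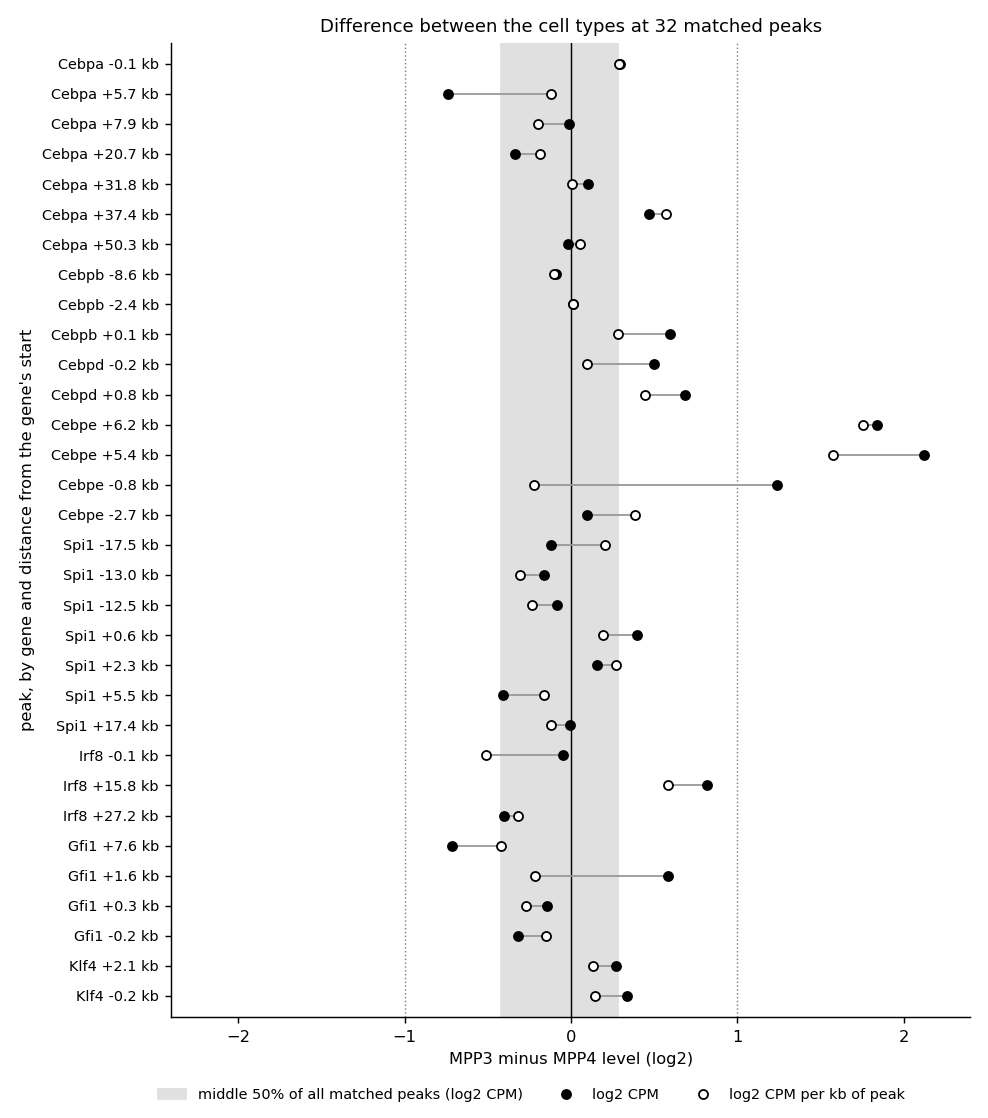
MPP3 minus MPP4 level (horizontal axis, log2) at the 32 matched peaks, listed by gene and distance from its start (vertical axis), as log2 CPM (filled circles) and per kb of peak length (open circles). The grey band is the middle 50% of all matched peaks, -0.42 to 0.28, and the dotted lines mark 2-fold. The peaks 5.4 and 6.2 kb past the *Cebpe* start lie beyond 2-fold on both scales, and the peak 0.8 kb before it only without division by length.

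Levels of different genes were compared per kb of peak length. In MPP3 cells, the most accessible peak within 1 kb of the main start had 150 CPM per kb at *Cebpa*, 80.7 at *Spi1*, 60.2 at *Gfi1*, 59.5 at *Klf4*, 56.4 at *Cebpb*, 47.4 at *Cebpd*, 25.7 at *Irf8* and 16.6 at *Cebpe*. In MPP4 cells, the order was *Cebpa* (123), *Gfi1* (72.5), *Spi1* (70.5), *Klf4* (53.8), *Cebpb* (46.3), *Cebpd* (42.9), *Irf8* (36.6) and *Cebpe* (19.4), so that only *Spi1* and *Gfi1* changed places. The *Cebpd* value is from the peak 0.8 kb into the gene in MPP3 and from the start peak in MPP4 cells. That start peak had 45.9 CPM per kb in MPP3 cells. Whether neighbours in this order differ beyond the spread between libraries cannot be said from these values. Among the other peaks of each gene, the order was different. In MPP3 cells the most accessible had 131 CPM per kb at *Cebpe*, 115 at *Spi1*, 96.7 at *Cebpa* and 73.9 at *Cebpb*. In MPP4 cells it had 38.9 at *Cebpe*, 143 at *Spi1* and 79.3 at *Cebpb*. At *Cebpa* in MPP4 cells it was 88.7 for the peak 0.7 kb before the start and 65.1 for the distal enhancer. The *Spi1* peak lies near an alternative start. *Cebpe* thus combined the least accessible start of the 8 with the most accessible distal peak in MPP3 cells.

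The start peaks also differed in base composition. At the peak over the start in MPP3 cells, the ratio of observed to chance-level CpG was 1.10 at *Cebpb*, 0.94 at *Klf4*, 0.861 at *Irf8*, 0.836 at *Cebpa* and 0.781 at *Cebpd*, above the median of 0.697 over the 20118 peaks at starts of protein-coding genes. It was 0.544 at *Gfi1*, below that median, and 0.711 at the adjoining *Gfi1* peak 0.3 kb into the gene. For the peaks nearest to the start, it was 0.350 at *Spi1* and 0.182 at *Cebpe*, closer to the median of 0.207 over peaks away from such starts. At *Spi1*, a CpG-poor peak near the start was still among the most accessible of the 8. The median GC content of the 39 MPP3 peaks was 59.2%, against 52.5% over all MPP3 peaks, and that of the 42 MPP4 peaks was 57.3%, against 51.9%.

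Binding words were counted in the central 200 bp of each peak. CEBP words lay in 7 of the 39 MPP3 windows (17.9%, against 8.16% of all MPP3 windows) and in 5 of the 42 MPP4 windows (11.9% against 7.82%). In MPP3 cells the 7 were 3 *Spi1* peaks, at 13.0 kb upstream, 0.6 kb and 2.3 kb past the main start, and a peak each of *Cebpb*, *Cebpe*, *Irf8* and *Gfi1*. None of the windows of *Cebpa*, *Cebpd* or *Klf4* held one. E-box words lay in 17 of 39 windows (43.6% against 28.8%) in MPP3 and 19 of 42 (45.2% against 29.5%) in MPP4 cells, and KLF words in 12 (30.8% against 22.8%) and 15 (35.7% against 22.3%). PU.1 words lay in 5 (12.8% against 19.2%) and 8 (19.0% against 21.0%), and RUNX words in 10 (25.6% against 28.4%) and 9 (21.4% against 30.4%). EBF1 words lay in 2 (5.13% against 4.68%) and 3 (7.14% against 3.74%), GATA words in 4 (10.3% against 13.1%) and 4 (9.52% against 10.5%), and GFI1 words in 2 (5.13% against 5.00%) and 3 (7.14% against 5.25%). The windows of the cell types share most of their sequence, so the second count does not repeat the first independently, and none of these shares was tested. The peaks of the 8 genes were richer in GC than all peaks, as given above, and the part of base composition in these shares was not tested.

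**Figure D4:**
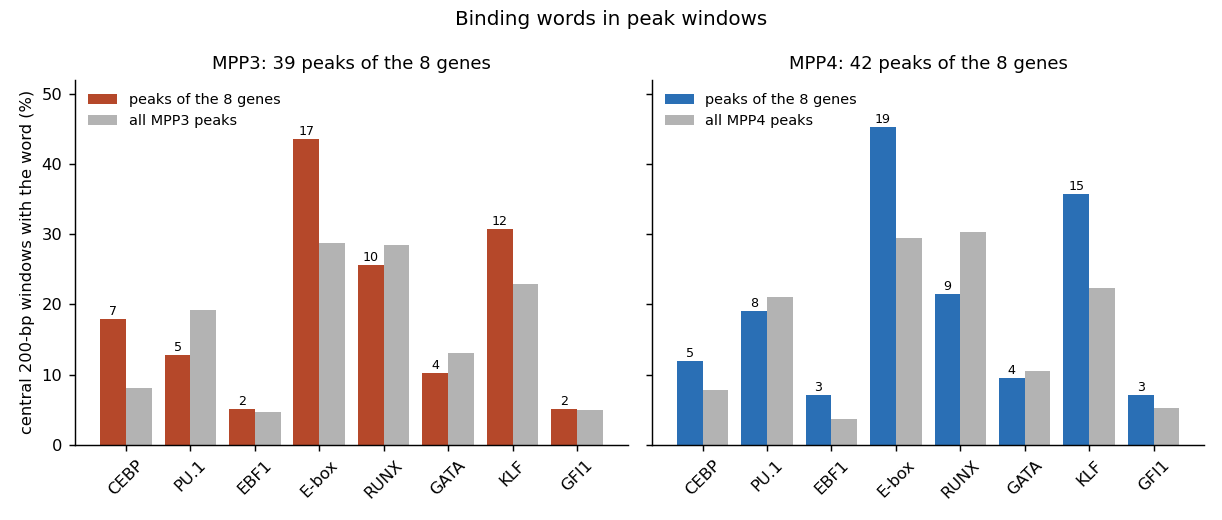
Share of central 200-bp windows that hold each binding word (vertical axis, %), for the peaks of the 8 genes (coloured bars, with the number of windows above) and all peaks of the cell type (grey bars), in MPP3 (left, 39 peaks) and MPP4 cells (right, 42 peaks). E-box words were the most frequent of the 8 in the members, in 17 MPP3 and 19 MPP4 windows.

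Single CEBP words were also read from whole peaks. The *Spi1* peak 2.3 kb past the main start held TTGTGCAA close to its centre, and the *Spi1* peak upstream held TTTTGCAA, the same letters as the first and last CEBP words of the *Cebpe* peak. Outside the central windows of MPP3 peaks, CEBP words lay in the *Cebpa* peak 7.9 kb downstream, 109 bp from its centre, and in the *Cebpd* start peak, 249 bp from its centre. Others lay in the *Klf4* peak 2.1 kb into the gene (100 bp from its centre), the *Gfi1* start peak (177 bp) and the *Spi1* peak 0.6 kb past the main start (186 bp). These are matches of letters and do not show binding. No share of all whole peaks with a CEBP word is given beside them, and wider peaks have more room for a match. The sites of *Spi1*, *Cebpa* and *Cebpb* are shown with 16 bases on either side, on the plus strand, as examples from 3 genes whose peaks were found in both cell types (chr2:91098346-91098385, chr7:35127058-35127097 and chr2:167686559-167686598).
Spi1 +2.3 kb CEBP word: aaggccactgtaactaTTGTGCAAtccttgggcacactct
Cebpa +7.9 kb CEBP word: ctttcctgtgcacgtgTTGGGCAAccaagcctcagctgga
Cebpb -2.4 kb CEBP word: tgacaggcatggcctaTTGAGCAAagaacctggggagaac

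Relatives and other factors of the same cells give a scale for these values. The median level of the member peaks was 3.28 log2 CPM in MPP3 and 3.35 in MPP4 cells, against 2.24 and 2.35 over all peaks, and 18 of 39 and 18 of 42 lay above the 75 percentile of their cell type. Peaks of the genes below were counted by the same closest-gene rule, so a peak near a gene can be counted for its neighbour. Among 11 family relatives, 8 had assigned peaks in MPP3 and 10 in MPP4 cells, with median levels of 2.93 and 3.70. *Klf2* and *Klf6* had starts at 7.08 and 6.95 in MPP3 and 7.06 and 6.74 in MPP4 cells, higher than the *Klf4* start in log2 CPM. *Cebpg* had no assigned peak in MPP3 and a weak one of 0.41 in MPP4 cells, which does not show that its chromatin was closed. The peaks of 7 B lineage factors had medians of 2.08 and 2.18, and 25 of their 58 MPP3 peaks (43.1%) and 13 of their 46 MPP4 peaks (28.3%) were found in 1 cell type only. For the relatives it was 7 of 40 (17.5%) and 2 of 36 (5.56%), for the myeloid factors 7 of 39 and 10 of 42, and for all peaks 24.3% and 23.3%. Those of 10 stem and progenitor factors had medians of 2.60 and 2.77, with 42 of 147 (28.6%) and 28 of 131 (21.4%) found in 1 cell type. The median MPP3 minus MPP4 difference at matched peaks was -0.11 for the relatives, -0.06 for the B lineage factors and -0.14 for the stem and progenitor factors. These lists were not tested against each other.

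The labelled cell types were checked at genes of the sort. The *Flt3* start had 5.92 log2 CPM in MPP3 and 7.01 in MPP4 cells, and the *Kit* start 5.54 and 5.63. *Ly6a*, which encodes Sca-1, had a single weak peak in each, at 1.36 and 1.15, and the strongest *Cd48* peak of MPP3 cells had 2.77. *Slamf1*, which encodes the excluded CD150, still had 3 peaks in each cell type, up to 3.59 and 4.21. Among the 5 lineage genes, *Ly6g* had no assigned peak in either cell type and *Cd3e* none in MPP3 cells. The strongest assigned peaks of the others lay between 2.17 and 3.61. Accessible chromatin does not show expression, and whether contaminating cells had a part in the levels of the myeloid genes was not tested.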

How the data were processed

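ATAC-seq libraries were analysed from the tables the authors deposited, 1 for each cell type. Per the study's methods, adapters were trimmed with cutadapt 2.10, reads were aligned to mm10 with duplicates removed, fragments longer than 150 bp were discarded with deepTools 3.3.2, and peaks were found with MACS2 2.2.7.1 on merged replicates and joined over both genotypes. The authors' edgeR 3.32.0 fit (R 4.0.3) gave the deposited mean log2 CPM per peak over 4 libraries, which was used as the authors' mean, without SD. The same tables hold fold changes, F, p and FDR of KO against WT, which are the authors' own comparisons and were not used. Peaks were assigned with GENCODE vM21 and matched between tables by an overlap of at least 1 bp in Python 3.11.15 (numpy 2.4.6, pandas 2.3.3), and words were counted in GRCm38 sequence. The scripts were tested on simulated data. For each gene every peak was counted, and its strongest start peak, its strongest other peak and all peaks found in 1 cell type were named. The genes, lists and words were chosen with earlier results of these data known. Peaks at least 1 on the log2 scale apart were counted as 2-fold different. Depth per library is not known from the tables, so no interval is given.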

Additional observations from a re-analysis of the deposited data

How the results depend on the processing

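The number of member peaks ranged from 35 to 51 in MPP3 and from 36 to 55 in MPP4 cells, with the low ends from leaving out the *Cebpa* interval, an alternative chosen after seeing the data, and the high ends from counting every peak in a gene's window whichever gene was closest. With an overlap of at least 50% of the peak, 9 MPP3 and 10 MPP4 member peaks had no partner. The median difference at matched peaks lay between 0.003 and 0.09 log2 over the alternatives, near 0 in each. E-box words lay in 17 to 24 MPP3 and 19 to 24 MPP4 members with windows of 200 bp, 300 bp or the whole peak. Of the 32 matched differences, 4 changed sign per kb of peak length and 3 when centred on all matched peaks. The largest that changed sign was that of the peak 0.8 kb before the *Cebpe* start. No replicate could be left out, since the tables hold no value per library. No paired analysis was possible because the levels are means over all libraries of a cell type and no test was made.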
